A study of Mus musculus and Rattus norvegicus with 6 samples.

Results

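The microRNA miR-9 was followed in small RNA sequencing of whole rodent retina, through every count row named miR-9 with or without a paralog letter. There were 6 such rows among the 2679 names of both tables: miR-9a-5p, miR-9a-3p, miR-9b-5p and miR-9b-3p among the 764 rat names, and miR-9-5p and miR-9-3p (mmu-miR-9-5p and mmu-miR-9-3p in full) among the 1915 mouse names. The rat retinas came from wild-type Sprague Dawley animals and the mouse retinas from wild-type C57BL/6 animals, each 9 weeks of age; 3 libraries were made for either species. The rat libraries are called r1, r2 and r4 and the mouse libraries m1, m3 and m4. Strain, count table and species change together, so they cannot be told apart. The labels do not say that each library came from a separate animal, so p-values measure the spread between libraries, which may be technical in part.

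A microRNA (miRNA) is a short RNA cut from a hairpin precursor, from its 5p or its 3p arm, and it lowers the output of messenger RNAs that pair with its seed, the bases near its 5′ end. In vertebrates miR-9 is a miRNA of the nervous system. Its 5p arm targets messenger RNAs of progenitor and anti-neuronal regulators such as Hes1, Tlx and REST, and the 3p arm, also called miR-9*, is known to target the REST cofactor CoREST. In mouse retina miR-9 is known to act beside let-7 and miR-125 in the change from early to late progenitors, and it is also found in Müller glia, the main glial cells of the retina.

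The mature sequences are shown because each arm carries a seed of its own. They are the mouse sequences of RefSeq (GRCm38.p6), with the seed, bases 2 to 8, in capitals. Both miR-9 names of the mouse table had an entry there, and the RefSeq table also lists mouse miR-9b.
miR-9-5p: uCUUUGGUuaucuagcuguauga
miR-9-3p: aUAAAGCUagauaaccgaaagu
miR-9b-5p: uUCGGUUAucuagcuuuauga
miR-9b-3p: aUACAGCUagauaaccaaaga
The 4 seeds differ from each other. None of the 1679 mature mouse names in the RefSeq table shares any of them (0 others for each seed), so no miRNA outside the family adds to these seeds there. Rat sequences were not used here, and rat miR-9a was paired with mouse miR-9 by name.

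The 2 main arms come from 3 hairpins with identical mature arms, so a count of miR-9-5p cannot be assigned to a locus. The hairpins, with both arms in capitals, are given on the plus strand of GRCm38.p6.
Mir9-1: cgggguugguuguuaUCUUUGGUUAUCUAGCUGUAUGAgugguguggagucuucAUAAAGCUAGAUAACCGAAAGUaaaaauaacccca
Mir9-2: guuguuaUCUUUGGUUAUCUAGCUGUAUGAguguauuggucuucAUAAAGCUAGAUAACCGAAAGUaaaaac
Mir9-3: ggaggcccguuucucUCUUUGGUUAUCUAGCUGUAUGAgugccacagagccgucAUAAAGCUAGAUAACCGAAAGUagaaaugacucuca
Mir9-1 lies at chr3:88215598-88215686, within introns of the long noncoding RNA gene Gm3764. Mir9-2 lies at chr13:83738814-83738885, where an exon of 1 transcript of the long noncoding RNA gene C130071C03Rik covers it. Mir9-3 lies at chr7:79505264-79505353, within introns of its host gene Mir9-3hg. The loop between the arms has 16 bases in Mir9-1 and Mir9-3 and 14 in Mir9-2, and the bases outside the arms differ between the hairpins.

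In mouse the paralog miR-9b is not a separate hairpin family but the opposite strand of the same loci. The minus-strand entry for miR-9b-3p lies at chr3:88215613-88215633, inside Mir9-1, and all 21 of its bases are the reverse complement of miR-9-5p. Likewise 19 bases of miR-9b-5p are the reverse complement of miR-9-3p. Each miR-9b arm also resembles the same arm of miR-9, since the arms of a hairpin pair with each other. Over 21 aligned bases miR-9b-5p differs from miR-9-5p by U5C and G18U, with the miR-9 base first and positions counted from the 5′ end of miR-9. Over 21 bases miR-9b-3p differs from miR-9-3p by A4C, G17A, A20G and G21A. The U5C and A4C changes lie within the seeds. In the alignment miR-9b-5p (21 bases) starts further in than miR-9-5p (23 bases). The 5p seeds therefore cover shifted stretches and differ by more than U5C, while the 3p seeds differ by A4C alone.

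The libraries held 24169628 to 28198305 counts in rat and 27843590 to 30514632 in mouse. Rat library r1 stood apart. With counts scaled to a table total of 1000000 (CPM) and taken as log2(CPM + 1), its Pearson r across miRNA names was 0.986 with r2 and 0.988 with r4, against 0.999 for r2 with r4 and for each mouse pair. The photoreceptor miRNA of the miR-182 hairpin held 20.0% to 29.2% of counts in rat (named miR-182) and 18.3% to 20.3% in mouse (named miR-182-5p), as a check of the labelled tissue. Another photoreceptor miRNA, miR-183-5p, held 18.7%, 14.6% and 14.9% in r1, r2 and r4, against 25.0%, 24.1% and 23.6% in m1, m3 and m4. By share of all counts, all rat libraries thus lay below all mouse libraries for miR-183-5p. In the test across joined names described below, miR-183-5p was not called (log2 difference, rat minus mouse, -0.74, edgeR adjusted p = 0.0833). Markers of other cell types were above 0 in every list. Lens, cornea and epithelial miRNAs (4 in each table) summed to 1192 to 9414 CPM in rat, highest in r1, and 323 to 1267 CPM in mouse. Muscle miRNAs (3 in each table) summed to 44.3 to 66.9 CPM in rat and 642 to 883 CPM in mouse. Their directions differed. Mean scaled CPM in rat and mouse was 33.4 and 1064 for miR-1a-3p (miR-1-3p in rat) and 2.61 and 5.96 for miR-133a-3p. For miR-206-3p it was 35.8 and 25.1. Vascular and mesenchymal miRNAs (4 in each) summed to 7569 to 8001 CPM in rat and 4216 to 5044 CPM in mouse. These too differed in direction. Mean scaled CPM in rat and mouse was 7375 and 4028 for miR-143-3p and 59.8 and 36.8 for miR-145a-5p. It was 2134 and 2429 for miR-126a-3p and 45.9 and 50.4 for miR-126a-5p. Leukocyte and microglia miRNAs (5 in each) summed to 73.4 to 109 CPM in rat and 92.9 to 120 CPM in mouse. Red blood cell miRNAs were listed under 2 of the spelled names in rat, at 0.165 to 1.23 CPM, and under 4 in mouse, at 104 to 111 CPM. These sums cover different names and do not compare the species. The names in both tables were low: miR-144-3p had a mean scaled CPM of 0.447 in rat and 0.994 in mouse, and miR-144-5p 0.137 and 0.798. The part of these cells and of r1 in the results was not tested beyond leaving r1 out. In whole retina, fewer cells of a type and less RNA per cell cannot be told apart.

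The 5p arm, which represses the anti-neuronal targets named above, was among the most abundant miRNAs of both retinas. In rat, miR-9a-5p had 1084488, 1934720 and 2187890 counts in r1, r2 and r4. These were 4.49%, 7.65% and 7.76% of all counts. In mouse, miR-9-5p had 1580672, 1770660 and 1591096 counts in m1, m3 and m4, or 5.68%, 5.80% and 5.65% of all counts. By share, r1 lay below every mouse library while r2 and r4 lay above every mouse library, so the species overlapped. The means were 6.63% ± 1.86 in rat and 5.71% ± 0.0832 in mouse (SD, n = 3 each).

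By mean share miR-9a-5p ranked 3 among the rat names and miR-9-5p ranked 4 among the mouse names. The next name above it in rat was the photoreceptor miRNA miR-183-5p at 16.1% ± 2.27, and its libraries did not overlap with those of miR-9a-5p. The next below was let-7f-5p at 5.60% ± 0.643 (SD, n = 3). This order did not hold in each rat library, since let-7f-5p in r1 was 6.34% and stood above miR-9a-5p. In mouse the neighbours were let-7f-5p above, at 7.05% ± 0.271, and let-7g-5p below, at 4.40% ± 0.167 (SD, n = 3 each), and neither overlapped with miR-9-5p.

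The 3p arm was far less abundant. In rat, miR-9a-3p had 14694, 50306 and 50277 counts in r1, r2 and r4, or 0.0608%, 0.199% and 0.178% of all counts. In mouse, miR-9-3p had 32230, 38415 and 34154 counts, or 0.116%, 0.126% and 0.121%. Here too r1 lay below and r2 and r4 above every mouse library. By mean share the arm ranked 53 in rat (0.146% ± 0.0745) and 50 in mouse (0.121% ± 0.00507; SD, n = 3 each). Its neighbours, miR-148b-3p and miR-7b in rat and miR-328-3p and let-7e-5p in mouse, all overlapped with it.

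**Figure D1:**
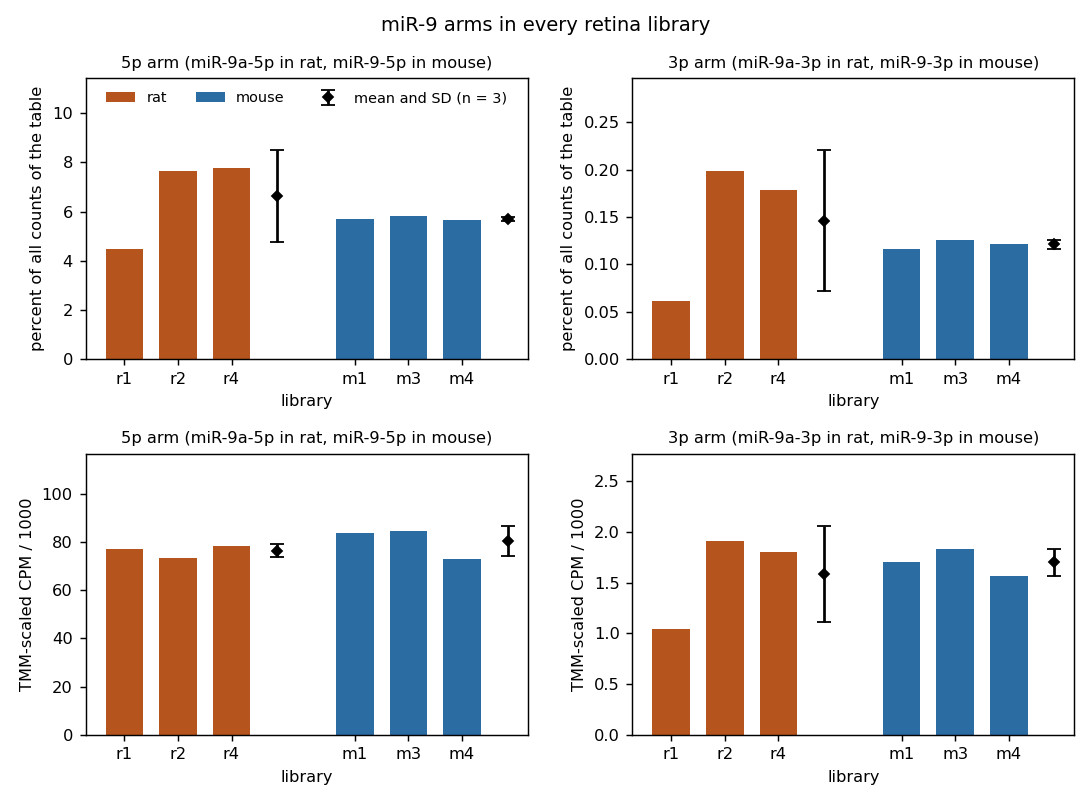
The upper bars show each miR-9 arm as percent of all counts and the lower bars as TMM-scaled CPM, per library, with the mean and SD of 3 libraries beside each species. By share r1 is the lowest library for both arms, while by scaled CPM r1 has 77266 for the 5p arm, between r2 and r4, and 1047 for the 3p arm, below every other library.

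Neither arm was called different between the species in the test across all joined names. For this test the counts were scaled with TMM factors (trimmed mean of M values, which set the bulk of miRNAs equal between libraries) over 586 names present in both tables, and tested with edgeR's quasi-likelihood test, with a call at a Benjamini-Hochberg adjusted p under 0.05. On this scale miR-9a-5p was at 77266, 73583 and 78561 CPM in r1, r2 and r4, against 83633, 84460 and 73157 CPM for miR-9-5p in m1, m3 and m4. The species overlapped, and library m4 was the lowest of all 6. The log2 difference, rat minus mouse, was -0.07 ± 0.15 (SE; edgeR adjusted p = 0.725), with a 95% interval of -0.41 to 0.27. As a fold of rat over mouse the interval runs from 0.750 to 1.21, so these libraries leave room for a difference of that size in either direction.

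On the same scale miR-9a-3p was at 1047, 1913 and 1805 CPM in r1, r2 and r4, and miR-9-3p at 1705, 1832 and 1570 CPM in m1, m3 and m4. Library r1 was the lowest of the 6 and the others overlapped. The log2 difference was -0.10 ± 0.23 (SE; edgeR adjusted p = 0.752; 95% interval -0.63 to 0.43). Without r1 it was 0.14 ± 0.06 (adjusted p = 0.0697). With library totals in place of TMM factors the log2 differences were 0.28 for the 5p arm and 0.32 for the 3p arm, neither called (adjusted p = 0.270 and 0.482), and the median of all tested names moved to 0.39 from 0.03.

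Many other miRNAs were called. Of 428 tested names 216 were called by edgeR (50.5%), 103 higher in rat (24.1%) and 113 lower (26.4%). DESeq2 called 227 of the 428 (53%), and 239 of them were at an unadjusted edgeR p under 0.05. Of the 2 tested miR-9 names, 0 were called by edgeR, 0 were at an unadjusted p under 0.05 and 0 were called by DESeq2. With only 2 arms of the same hairpins, 0 calls cannot set miR-9 apart from these shares. The median size of the log2 difference over all tested names was 0.64, against 0.07 and 0.10 for the miR-9 arms. The species did not overlap for 255 names (59.6%), and overlapped for both miR-9 arms.

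The family, both arms and miR-9b included, held 4.55%, 7.85% and 7.94% of all counts in r1, r2 and r4, against 5.79%, 5.93% and 5.77% in m1, m3 and m4. The means of 6.78% ± 1.93 in rat and 5.83% ± 0.0869 in mouse (SD, n = 3 each) differed by 0.948 percentage points, less than the rat SD (two-sided exact permutation p = 0.400; the smallest that 3 against 3 allows is 0.10). With 1 library left out, the difference ran from 0.368 without r4 to 2.06 percentage points without r1. It was 0.413 without r2.

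The use of the arms was compared through their ratio within each library, which needs no scaling between libraries. There were 73.8, 38.5 and 43.5 counts of miR-9a-5p for each count of miR-9a-3p in r1, r2 and r4, against 49.0, 46.1 and 46.6 counts of miR-9-5p per miR-9-3p in m1, m3 and m4. The mouse ratios lay close together and between r1 on one side and r2 and r4 on the other. The 3p arm made up 2.04% ± 0.625 of the arm counts in rat and 2.07% ± 0.0668 in mouse (SD, n = 3 each). Counting error was far smaller than this spread: in r1 the exact 95% binomial interval of the 3p share was 1.32% to 1.36%. Such intervals take reads as independent, which PCR copies are not.

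On the log2 scale the arm ratio was 5.64 ± 0.50 in rat and 5.56 ± 0.05 in mouse (SD, n = 3 each). The difference was 0.08 ± 0.29 (SE; limma adjusted p = 0.879; 95% interval -0.63 to 0.78). The median size over the 183 hairpins tested was 0.59, and 44 of them (24.0%) were called. Without r1 the difference was -0.21 ± 0.12 (adjusted p = 0.219). In mouse 43 hairpins favoured the 5p arm more strongly than miR-9 did. The SD of the ratio between rat libraries was near the median of all hairpins (0.52), and that between mouse libraries was below the median (0.17).

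**Figure D2:**
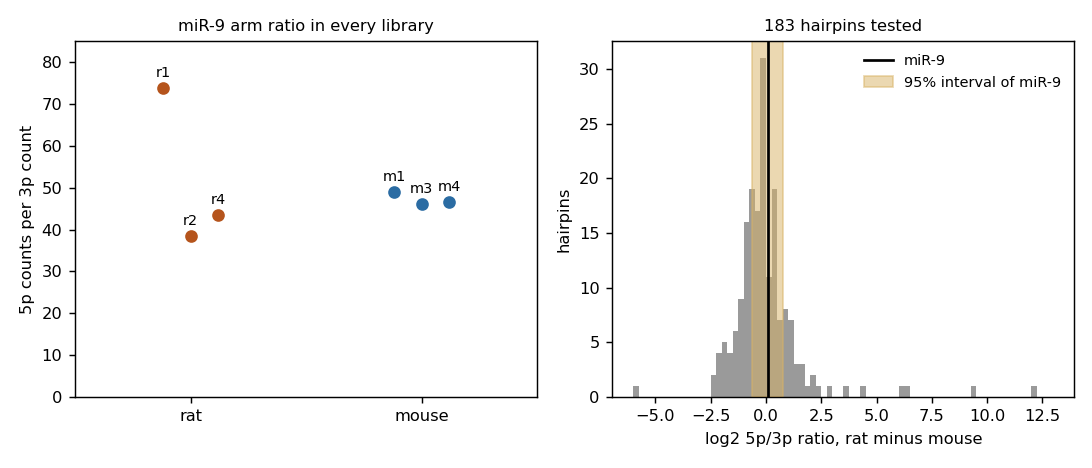
The left panel shows the 5p to 3p count ratio of miR-9 in each library, with r1 at 73.8 and the other 5 libraries between 38.5 and 49.0. The right panel is a histogram of the log2 ratio difference, rat minus mouse, over 183 hairpins, with miR-9 at 0.08 and its 95% interval shaded.

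Library r1 departed from r2 and r4 unequally for the 2 arms. Among 133 joined names of at least 100 CPM mean in both species, the scaled log2 CPM of r1 minus the mean of r2 and r4 had a median of 0.20 and ran from -1.24 to 2.17. For miR-9-5p it was 0.02, smaller in size than for 130 of these names. For miR-9-3p it was -0.83, with 9 names lower. The log2 arm ratio of miR-9 was 0.85 higher in r1 than in r2 and r4, and 80 of the 183 hairpins departed by more than this in either direction. Beside these values, miR-184, an abundant miRNA of lens and cornea, was at 9369 CPM in r1, 1761 in r2 and 1119 in r4, and its part was not tested.

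**Figure D3:**
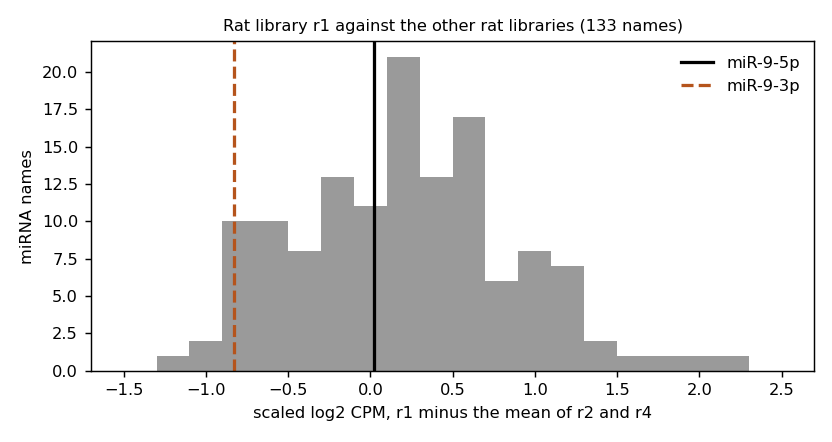
The histogram shows, for 133 names, the scaled log2 CPM of rat library r1 minus the mean of r2 and r4. The solid line marks miR-9-5p at 0.02 and the dashed line miR-9-3p at -0.83, near the low end.

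The paralog names had few counts, and miR-9b-3p lay near the floor of detection. Both are listed in the rat table and not in the mouse table, so no comparison with mouse was made. In r1, r2 and r4, miR-9b-5p had 28, 56 and 46 counts, and miR-9b-3p had 1, 10 and 10 counts. The 95% Poisson interval of miR-9b-5p in r1 was 18.6 to 40.5 counts and that of miR-9b-3p in r1 was 0.0253 to 5.57 counts, for counting error only. The mean level was 1.67 CPM ± 0.529 for miR-9b-5p and 0.264 CPM ± 0.194 for miR-9b-3p (SD, n = 3 each). They ranked 403 and 517 of the 764 rat names, with 361 and 248 names below them.

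Of every 1000000 counts of the family, miR-9b made up 26.4, 33.2 and 25.0 in r1, r2 and r4. The mean was 28.2 per 1000000 ± 4.41 (SD, n = 3), and the exact 95% binomial intervals of the libraries overlapped (17.7 to 37.9 in r1, 25.7 to 42.3 in r2 and 18.9 to 32.5 in r4). There were 25.8, 28.9 and 21.0 counts of miR-9b-5p per 1000000 of miR-9a-5p, and 68.1, 199 and 199 counts of miR-9b-3p per 1000000 of miR-9a-3p, the r1 value resting on 1 count. The 5p arm was the more abundant in every rat library. How reads with mismatches were assigned is not given in the sources used here. Since the mouse arms differ by a few bases, the part of misassigned miR-9a reads in these small counts was not tested.

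Other miRNAs of neurons were set beside miR-9. Of 13 listed, 12 were tested: 5 were called lower in rat, 1 was called higher and 6 were not called. Among all tested names 50.5% were called, 26.4% lower and 24.1% higher. The median log2 difference of the list was -0.49, against 0.03 over all tested names. The pan-neuronal miR-124-3p, which represses non-neuronal transcripts in neurons, was at 10821, 12825 and 13087 scaled CPM in r1, r2 and r4, against 20095, 22498 and 19493 in m1, m3 and m4. All rat libraries lay below all mouse libraries, with a log2 difference of -0.76 ± 0.16 (SE; edgeR adjusted p = 0.00391). It was -0.38 and not called with library totals (adjusted p = 0.237). Also lower were miR-128-3p (-1.14), miR-149-5p (-0.92), the activity-regulated miR-212-5p (-1.01) and miR-132-3p (-0.59). The call of miR-132-3p (adjusted p = 0.0400) was lost with library totals, relative log expression factors, DESeq2 or fewer joined names, and without m1, m3, m4, r2 or r4. Only miR-218-5p, a miRNA of motor neurons, was called higher (1.49).

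The ratio of miR-9-5p to miR-124-3p shows the contrast within each library without scaling. There were 7.14, 5.74 and 6.00 counts of miR-9a-5p per count of miR-124-3p in r1, r2 and r4, against 4.16, 3.75 and 3.75 counts of miR-9-5p per miR-124-3p in m1, m3 and m4. All rat libraries were above all mouse libraries. On the log2 scale the ratio was 2.65 ± 0.17 in rat and 1.96 ± 0.09 in mouse (SD, n = 3 each), a difference of 0.69 or 1.61-fold. The two-sided exact permutation p of 0.10 is the smallest that 3 against 3 allows. With 1 library left out the difference ran from 0.60 to 0.75. Such a separation was common: the ratio of miR-9-5p to the other 427 tested names did not overlap between the species for 61.1% of them.

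Retinal progenitor timing miRNAs, let-7 and miR-125, act beside miR-9 in mouse retinal development. Of the 10 members 5 were called lower in rat, 0 were called higher and 5 were not called. Of all tested names 50.5% were called, 26.4% lower and 24.1% higher. Only the total called was near this background, since every call of the list was lower. All 5 calls were names of the let-7 family, and the list was chosen with earlier results of these data known. They are therefore not independent members, and their shared direction is given as a description. The list's median was -0.50, against 0.03 over all names. Those lower were let-7d-5p (-0.77 ± 0.15), let-7b-5p (-0.63 ± 0.15), let-7c-5p (-0.53 ± 0.15), let-7g-5p (-0.51 ± 0.14) and let-7a-5p (-0.43 ± 0.15; SE). The values that did not pass lay on both sides of 0, with let-7i-5p at 0.42 ± 0.25, let-7e-5p at -0.08 ± 0.14, miR-125a-5p at -0.32 ± 0.25, let-7f-5p at -0.49 ± 0.30 and miR-125b-5p at -0.53 ± 0.22 (SE). With library totals, where 44.2% of all tested names were called, 0 members were called lower and 1, let-7i-5p, higher (0.68). With 1 library left out 2 to 7 were called lower, where 39.9% to 70.8% of all tested names were called. The 7 came without r1, where 70.8% of all tested names were called. Of 6 Müller glia miRNAs, miR-204-5p was higher (0.58 ± 0.20, adjusted p = 0.0429) and 5 were not called, among them miR-99a-5p (0.10 ± 0.20) and miR-100-5p (0.05 ± 0.22). Among all tested names 50.5% were called and 24.1% were called higher, so the list did not exceed the background. Its median was 0.09, against 0.03 over all names. The name miR-204-5p is also a marker of pigment epithelium and neural retina: with miR-211-5p, listed there too, it summed to 24512 to 30822 CPM in rat and 13778 to 16134 CPM in mouse, without overlap. The part of the pigment epithelium was not tested. The number of Müller glia members called changed with the libraries used. Without r1, 3 were higher and 2 lower, where 70.8% of all 442 tested names were called. Without m1, m3, m4 or r2, 0 were higher, where 39.9% to 47.3% of all tested names were called.

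**Figure D4:**
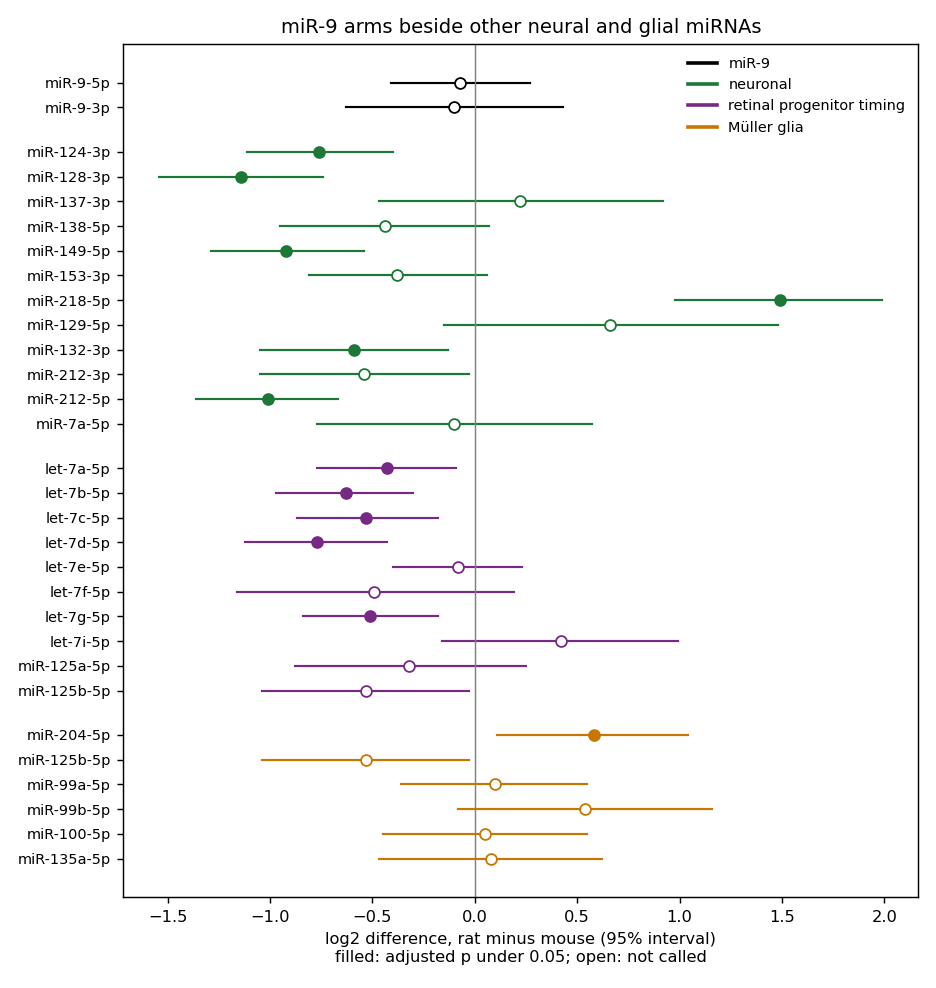
Points are log2 differences, rat minus mouse, with 95% intervals, for the miR-9 arms and the members of 3 lists; filled points were called at an adjusted p under 0.05. Both miR-9 arms lie near 0, at -0.07 and -0.10, while miR-124-3p lies at -0.76 and miR-218-5p at 1.49.

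The names whose level varied most like miR-9-5p between libraries were found after each species' mean was removed, over 6 libraries and 132 other names of at least 100 CPM mean in both species. The Pearson r was 0.968 for miR-21a-5p, 0.962 for miR-183-3p and 0.944 for miR-30a-5p. It was lowest for miR-382-5p (-0.726), let-7d-5p (-0.633) and let-7a-5p (-0.509). These values share libraries and scaling factors and are given as a description. The other arm of the same hairpins, miR-9-3p, took place 102 of 132 with r = 0.054, and without r1 its r was 0.657.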

How the data were processed

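The labels' protocols describe retina dissection after storage in RNAlater, isolation with a miRNeasy kit and Illumina sequencing of small RNA on a HiSeq-2500, single-end, and name rat eyes for both species. Each species has 1 table of counts per mature name, whole numbers that the authors deposited without normalization. No aligner, annotation release or rule for multi-mapped reads is stated in these sources. Columns carry a species and a number up to 4, while the labels number replicates 1 to 3, so each was assigned to its species only.

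Names were joined without the species prefix: 542 exact, 43 that differ by the letter a (miR-9 with miR-9a among them) and 1 by a missing arm suffix (586 in all). The species were compared by edgeR's quasi-likelihood test (version 4.0.16, R 4.3.3) after filterByExpr and TMM scaling, with no covariate, with SE taken as the log2 difference over the root of F. Arm usage was tested with limma 3.58.1 on log2((5p + 0.5)/(3p + 0.5)) for hairpins with at least 50 counts over both arms in every library (183 of 251). Scaled CPM are TMM-scaled counts per 1000000 of the joined names. DESeq2 1.42.0 served as an alternative. Shares and ratios were tested with exact permutation tests (scipy 1.17.1). Both models were also run on simulated counts drawn independently for each library. No simulated library stood apart as r1 does, so these runs do not show how the tests behave with r1. No pair of libraries agreed within sampling noise (lowest chi-square per degree of freedom 102).

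The miR-9 names and the lists (neuronal, progenitor timing, Müller glia, and markers of other cells) were chosen with earlier results of these data known. Named miRNAs were every miR-9 name, its neighbours in level, list members, and the 3 names most and the 3 least like miR-9-5p between libraries. From the marker lists came miR-184, mouse miR-182-5p, miR-183-5p, miR-211-5p, the miR-144 names, and the muscle, vascular and mesenchymal names. The rat name miR-182 was not in those lists and was set beside mouse miR-182-5p. Sequences and positions are those of RefSeq GRCm38.p6, with host genes from GENCODE M21; rat sequences were not used here.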

Additional observations from a re-analysis of the deposited data

How the results depend on the processing

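Neither miR-9 arm was called under any alternative run (library totals, relative log expression factors, DESeq2, no filter, fewer joined names, each library left out), but the sign was not stable. The log2 difference of miR-9-5p was 0.28 with library totals and 0.02 with only exact names and the miR-9 pairs joined; with 1 library left out it ran from -0.10 to -0.04. That of miR-9-3p was 0.32 with library totals and ran from -0.25 to 0.14 with 1 library left out. The arm ratio difference ran from -0.21 to 0.26 with 1 library left out and kept its sign under the other alternatives. The cause was not tested.

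Of 428 tested names, library totals gave 138 higher and 51 lower, with 44.2% called in all. Of these calls 73.0% were higher, against 47.7% with TMM factors. Of 6 Müller glia members 3 were called higher. Of 12 neuronal members 2 were called higher and 3 lower, and of 10 progenitor timing members 1 higher and 0 lower. With only exact names and the miR-9 pairs, 48.2% of 400 tested names were called. There 0 neuronal members were called higher, since miR-218 is then not joined, and 2 of 10 progenitor timing members were called lower. With 1 library left out, 84 to 157 of 432 to 442 tested names were called higher and 90 to 156 lower, 39.9% to 70.8% in all. Of the 6 Müller glia members 0 to 3 were called higher and 0 to 2 lower. Of the 12 neuronal members 1 to 2 were called higher and 4 to 7 lower. Of the 10 progenitor timing members 2 to 7 were called lower. The share difference between species (0.948 percentage points) ran from 0.368 without r4 to 2.06 without r1. The log2 ratio to miR-124-3p (0.69) ran from 0.60 to 0.75. Both stayed within 1 SD pooled over the species. For the share that SD includes r1 (4.55%, against 7.85% and 7.94% in r2 and r4), so it cannot judge leaving r1 out. Without r1 both rat libraries lay above every mouse library in share. No paired analysis was possible because the columns are numbered 1, 3 and 4 in mouse and 1, 2 and 4 in rat while the labels number replicates 1 to 3, so no column could be tied to a labelled replicate. Depth limits the miR-9b values, at 1 to 56 counts per library.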
